A study of Mus musculus with 12 samples.

Results

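The regions described here are 1 kb stretches of the mouse autosomes that were methylated at an intermediate level, near the middle of the scale, in the 3 whole embryos of a reduced representation bisulfite sequencing (RRBS) study. In RRBS, genomic DNA is cut with MspI and short fragments, rich in CpGs, are sequenced after bisulfite treatment, which gives for each cytosine the percent of reads that were methylated. The 19 autosomes were divided into tiles of 1000 bp, and a tile was eligible with at least 5 cytosines that had a value in all 3 embryos and stood at 20% or more in any of the 12 libraries. A tile was a member if its mean over those cytosines was 35 to 65% in every embryo, with the first 2 embryos named below at most 15 points apart. Of 49745 eligible tiles, 4273 met the rule (8.59%), and the eligible tiles used for comparison include them. Since the embryo values chose the members, they are given as a description and were not tested. The filter on cytosines also used the other 9 libraries, so a cytosine under 20% everywhere was not counted.

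The 3 embryos were whole embryos at E15.5, a stage named by its embryonic day. The bimaternal (BM) embryo carries knockouts of differentially methylated regions (DMR-KO) and came from a parthenogenetic haploid embryonic stem cell (phESC) placed in a mature oocyte. The bipaternal (BP) embryo, also DMR-KO, came from an androgenetic haploid embryonic stem cell (ahESC) and a sperm, both placed in an oocyte without its nucleus. The wild-type (WT) embryo came from a normal zygote. The other libraries are a DMR-KO BM brain at E19.5, a DMR-KO BM adult brain, a WT adult brain, and WT ahESCs, phESCs and diploid embryonic stem cells (ESCs), each at late and at early passage. The early phESC sample is titled pESC and labelled parthenogenetic haploid, and the deposited column aESC_early was taken for the early ahESC sample, the only early androgenetic one. The labels do not say which regions were deleted, from which line the cells came or whether animals were pooled. Each group is 1 library, which leaves values with no replicate error, and no difference between libraries was tested.

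In mammals, methyl groups are added mostly to cytosines of CpG pairs, and most CpGs outside CpG islands are methylated in somatic tissue. Islands at promoters are usually free of it, except at genes used only in germ cells and on the silenced copy of imprinted genes, which carry methylation on the copy from one parent. A percent near the middle in a bulk library can come from one of both copies, from a part of the cells or from a part of the sites in every cell. These cannot be told apart in values without reads. Embryonic stem cells are known to lose methylation in some culture conditions.

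Promoters and coding exons with many CpGs gave the members with most cytosines, and their sequences are shown first. A promoter window here is RefSeq sequence (GRCm38.p6) from 250 bases before to 50 after a gene's start, matched to the mm9 positions of the deposited file by the pattern of its CG and GC pairs. The 6 windows with most counted cytosines in members are printed because they hold the most measured CpGs of members at promoters, leaving out genes with provisional numbers. They are not typical of members, which have a median of 7 counted cytosines and lie in promoters in 8.33% of cases, against 10.2% of all eligible tiles. They are printed in the direction of the gene, with capitals for each CpG that had a counted value. They are Boll, an RNA-binding protein of the DAZ family in germ cells (chr1:55419523-55419822, minus strand), Henmt1, which methylates the ends of piRNAs (chr3:108743225-108743524, plus strand), Papolb, a poly(A) polymerase of the testis (chr5:143005981-143006280, minus strand), Sox30, a transcription factor of spermatids (chr11:45793562-45793861, plus strand), Hormad2, a protein of meiotic chromosome axes (chr11:4341036-4341335, minus strand), and Plekhg4 (chr8:107898877-107899176, plus strand).
Boll: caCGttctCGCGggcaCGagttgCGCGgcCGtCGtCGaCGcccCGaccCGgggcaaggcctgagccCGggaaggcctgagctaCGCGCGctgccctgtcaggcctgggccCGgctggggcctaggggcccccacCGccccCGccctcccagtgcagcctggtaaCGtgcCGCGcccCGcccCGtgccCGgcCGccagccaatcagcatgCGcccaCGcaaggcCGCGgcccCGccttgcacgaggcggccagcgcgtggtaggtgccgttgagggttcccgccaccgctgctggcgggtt
Henmt1: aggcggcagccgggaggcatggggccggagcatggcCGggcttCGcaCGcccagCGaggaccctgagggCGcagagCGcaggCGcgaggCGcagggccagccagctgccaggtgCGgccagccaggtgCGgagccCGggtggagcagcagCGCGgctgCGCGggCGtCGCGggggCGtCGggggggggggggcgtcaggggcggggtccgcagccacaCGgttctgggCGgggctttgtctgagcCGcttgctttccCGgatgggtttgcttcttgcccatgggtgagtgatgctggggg
Papolb: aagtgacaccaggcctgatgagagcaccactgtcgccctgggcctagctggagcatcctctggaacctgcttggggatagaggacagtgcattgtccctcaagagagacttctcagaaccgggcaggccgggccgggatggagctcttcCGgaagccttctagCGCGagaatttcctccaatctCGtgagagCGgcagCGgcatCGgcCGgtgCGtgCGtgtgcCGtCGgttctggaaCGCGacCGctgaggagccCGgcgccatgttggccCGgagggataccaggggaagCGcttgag
Sox30: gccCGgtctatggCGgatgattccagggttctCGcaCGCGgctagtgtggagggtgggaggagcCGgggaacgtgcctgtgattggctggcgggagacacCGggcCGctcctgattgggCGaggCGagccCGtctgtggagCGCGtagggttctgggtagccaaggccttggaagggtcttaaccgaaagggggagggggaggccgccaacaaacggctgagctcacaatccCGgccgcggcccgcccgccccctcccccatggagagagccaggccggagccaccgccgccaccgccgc
Hormad2: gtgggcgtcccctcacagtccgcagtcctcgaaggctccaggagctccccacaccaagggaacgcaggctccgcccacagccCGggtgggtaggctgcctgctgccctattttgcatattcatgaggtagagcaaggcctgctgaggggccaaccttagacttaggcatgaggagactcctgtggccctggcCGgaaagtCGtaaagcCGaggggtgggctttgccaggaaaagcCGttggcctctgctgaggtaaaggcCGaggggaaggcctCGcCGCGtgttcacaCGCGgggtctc
Plekhg4: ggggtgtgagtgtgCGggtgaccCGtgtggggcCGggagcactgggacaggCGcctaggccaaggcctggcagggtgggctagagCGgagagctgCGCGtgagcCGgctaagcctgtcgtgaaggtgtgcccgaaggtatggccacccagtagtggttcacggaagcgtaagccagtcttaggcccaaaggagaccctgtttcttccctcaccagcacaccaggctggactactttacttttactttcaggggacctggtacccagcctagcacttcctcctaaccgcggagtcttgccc

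In the Boll window above, 31 of 39 CpGs had a counted value, and their mean was 44.0% in the BM embryo, 36.8% in the BP embryo and 42.5% in the WT embryo. Single CpGs of Boll ran from 16.9 to 80.8% in the BM embryo, from 14.7 to 76.0% in the BP embryo and from 11.5 to 80.2% in the WT embryo. The Boll CpGs with a value averaged 48.7% in the BM brain at E19.5, 46.5% in the BM adult brain and 49.2% in the WT adult brain. Several of the counted CpGs nearest the start had no value in the BM adult brain, the WT adult brain or late phESCs. The means of those libraries thus cover fewer CpGs than the embryo means. Over the CpGs with a value in each library, Boll was close to one level in the embryos and brains, with CpGs that differed widely along the window. In ESCs the Boll window was low, at 5.18% in late and 10.8% in early ahESCs, 4.33% in late and 8.85% in early phESCs, and 3.22% in late and 13.2% in early diploid ESCs.

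The Henmt1 window, with 24 of 31 CpGs counted, stood at 40.8% in the BM embryo, 47.5% in the BP embryo and 44.2% in the WT embryo. The Papolb window, with 18 of 23 CpGs counted, stood at 50.2% in the BM, 41.3% in the BP and 43.6% in the WT embryo. The Hormad2 window, with 11 of 16 CpGs counted, stood at 49.3% in the BM, 54.98% in the BP and 39.9% in the WT embryo. All 3 were low in early diploid ESCs, at 13.6% for Henmt1, 6.53% for Papolb and 3.57% for Hormad2, and all 3 were above their embryo values in the BM brain at E19.5 (48.0, 73.4 and 67.0%). The Sox30 window, with 14 of 28 CpGs counted, was the lowest of the 6 in the embryos, at 36.0% in the BM, 32.6% in the BP and 37.6% in the WT embryo, and stood at 7.12% in early diploid ESCs.

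Plekhg4 differed from the other 5. Its 8 counted CpGs in the window averaged 92.0% in the BM, 91.7% in the BP and 90.1% in the WT embryo, although the tile that holds them averaged 53.4% in the BM, 53.3% in the BP and 48.7% in the WT embryo over 55 cytosines. The SD over the cytosines of that tile was 37.2 points in the BM embryo, so cytosines at high and at low levels lay in the same 1 kb. Such tiles are called mixed below, by their shares of low and high cytosines and not by the position of these.

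**Figure D1:**
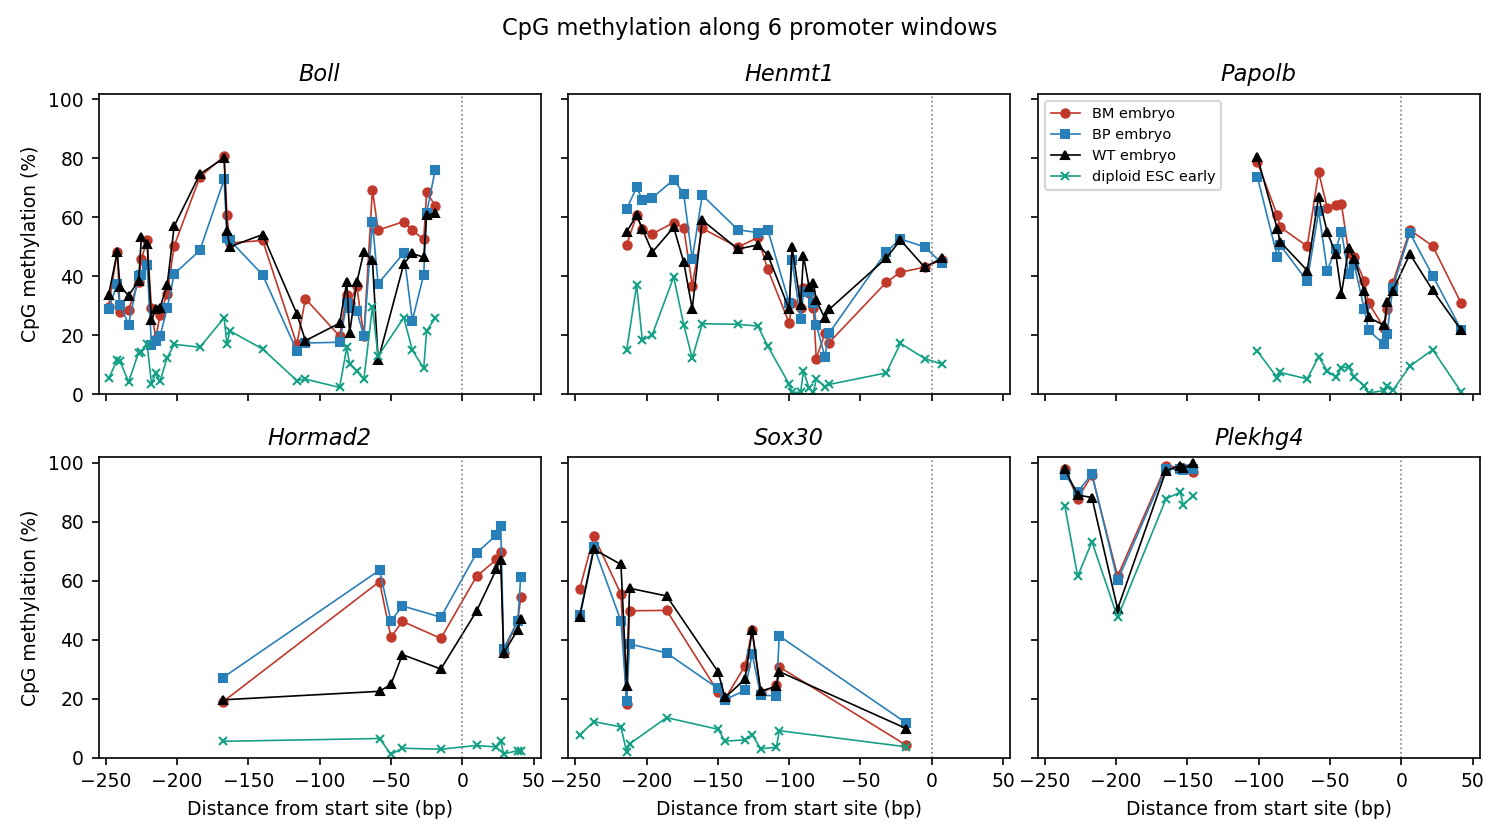
CpG methylation in percent against the distance from the gene's start site in bp, along 6 promoter windows, in the BM, BP and WT embryos and in early diploid ESCs; each point is 1 CpG, and lines join neighbours. The 3 embryos have a similar profile over most of each window and part at single CpGs, as at Hormad2 58 bp before the start (59.8% in the BM, 63.7% in the BP and 22.6% in the WT embryo); early diploid ESCs lie low in 5 windows, and Plekhg4 is high in all 4 libraries.

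The members with most cytosines of all lay in coding exons. The stretches below, 200 bases each, are the most densely counted coding parts of a pair of them, again in the direction of the gene and with capitals for counted CpGs, from GENCODE M21 transcripts placed on mm9 in the same way. Dact3, a modulator of Wnt signalling, lies at chr7:17471211-17471410 on the plus strand, and Sema6b, a semaphorin of axon guidance, at chr17:56263442-56263641 on the minus strand.
Dact3: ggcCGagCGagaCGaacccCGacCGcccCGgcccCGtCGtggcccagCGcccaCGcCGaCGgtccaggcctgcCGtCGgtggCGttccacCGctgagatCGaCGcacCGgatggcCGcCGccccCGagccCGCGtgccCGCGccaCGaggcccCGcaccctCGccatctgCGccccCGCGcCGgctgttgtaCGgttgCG
Sema6b: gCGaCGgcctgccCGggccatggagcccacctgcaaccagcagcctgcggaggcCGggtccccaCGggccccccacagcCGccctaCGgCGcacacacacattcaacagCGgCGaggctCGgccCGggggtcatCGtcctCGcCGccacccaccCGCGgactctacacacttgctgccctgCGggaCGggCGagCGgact

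The Dact3 tile, with 121 cytosines, stood at 51.6% in the BM, 42.5% in the BP and 52.4% in the WT embryo. It stood at 55.7% in the BM brain at E19.5, 70.2% in the BM adult brain and 67.2% in the WT adult brain. In ESCs Dact3 was at 6.14% in late and 6.15% in early ahESCs, 5.81% in late and 10.04% in early phESCs, and 3.63% in late and 8.69% in early diploid ESCs. All 6 ESC libraries thus lay under all 6 embryo and brain libraries at Dact3, with no overlap. The tile of Hcn2, a pacemaker channel of heart and brain, with 111 cytosines, stood at 43.2% in the BM, 44.2% in the BP and 40.3% in the WT embryo. In the brain Hcn2 was higher, at 62.7% in the BM brain at E19.5, 74.0% in the BM adult and 72.8% in the WT adult brain. In ESCs Hcn2 ran from 2.55% in late diploid ESCs to 20.9% in early ahESCs. The Sema6b tile, with 97 cytosines, stood at 42.4% in the BM, 47.6% in the BP and 44.7% in the WT embryo, against 10.5% in early diploid ESCs.

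The other members among the 10 with most cytosines were likewise lower in every ESC library than in the embryos. The medians of all eligible tiles with 40 or more cytosines had the same order, so it is not particular to members. Jph3 and Jph4 encode junctophilins, which tie the cell membrane to the endoplasmic reticulum in neurons. Jph3 stood at 63.1% in the BM, 56.8% in the BP and 53.0% in the WT embryo, and at 8.05% in late and 30.8% in early diploid ESCs. Jph4 stood at 55.3% in the BM, 54.2% in the BP and 50.5% in the WT embryo, and at 2.72% in late and 7.199% in early diploid ESCs. Rps4l, named for its likeness to a ribosomal protein gene, had its promoter in a member at 44.3% in the BM, 38.4% in the BP and 43.5% in the WT embryo, with 1.26% in late and 1.39% in early diploid ESCs. Zbtb7c, a zinc finger gene, stood at 62.6% in the BM, 57.4% in the BP and 61.7% in the WT embryo, with 5.01% in late and 13.9% in early diploid ESCs. Crb2, a gene of epithelial polarity with 61 cytosines and next in that order, stood at 42.7% in the BM, 43.5% in the BP and 46.3% in the WT embryo, and at 2.57% in late and 8.52% in early diploid ESCs. The remaining 2 of the 10, Gm48636 and Gm9229, have provisional numbers and lie near the start of chromosome 12, where 31 members lay before 26 Mb. Values in repeated sequence can mix copies, and the deposited file does not mark such sequence.

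**Figure D2:**
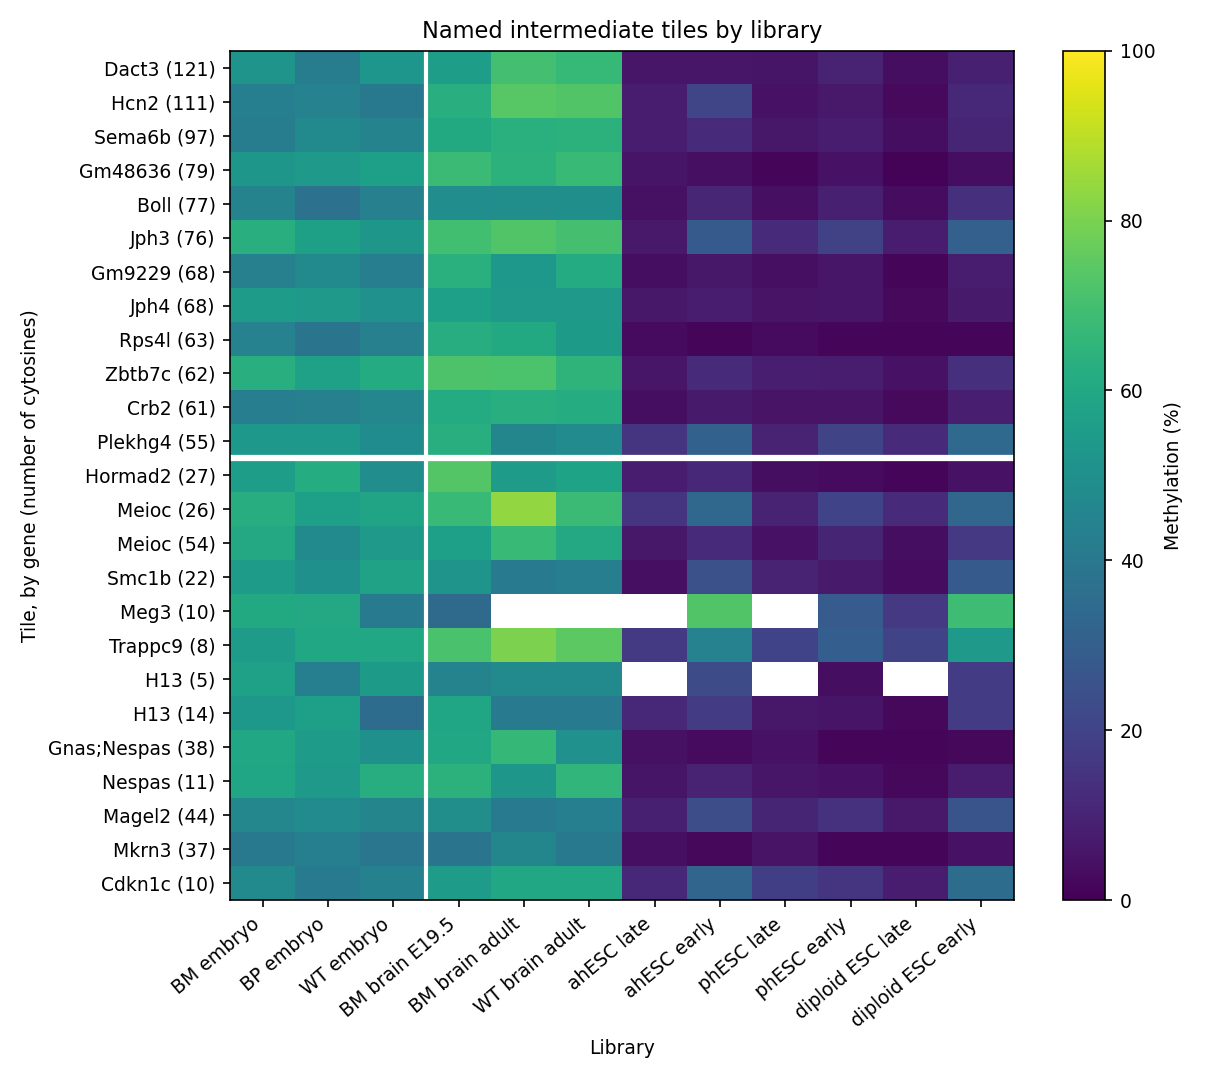
Methylation in percent, by colour, of named tiles (rows, with the number of counted cytosines in brackets) in the 12 libraries (columns); white cells have no value. The rows above the white line are the 12 members with most cytosines and those below it members of imprinted and germline genes; most are intermediate in the 6 embryo and brain columns and dark in the ESC columns, with Meg3 and Trappc9 as exceptions in early ahESCs and early diploid ESCs.

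By the rule, the members were alike in the embryos. Their median was 53.7% in the BM, 54.0% in the BP and 50.8% in the WT embryo. Of all eligible tiles, 14.2% were at 35 to 65% in the BM, 13.4% in the BP and 15.9% in the WT embryo. The BM value exceeded the WT value by 1.81 points in the median (SD 5.86 over 4273 tiles), and the BP value exceeded the WT value by 2.27 points (SD 7.50). The 5 members nearest the lower bound had a lowest embryo value of 35 to 35.02%, and the 5 tiles just outside it 34.98 to 34.99%. At the upper bound the 5 nearest members stood at 64.99 to 65% and the tiles just outside at up to 65.01%. A further 138 tiles were at 35 to 65% in all 3 embryos and failed only because the BM and BP embryos were over 15 points apart, the nearest of them by 15.03 to 15.12 points.

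The rule used single cytosines only through its filter, which drops those under 20% in all 12 libraries, and this bears on the shares that follow. Of the 4273 members, 3288 (76.95%) were even, meaning that at least 2 in 3 of the counted cytosines stood at 20 to 80%, averaged over the 3 embryos. This share was 76.3% in the 3654 tiles at 35 to 65% in the WT embryo that were not members, whatever their BM and BP values. It is thus not particular to the members. With no filter on cytosine level it was 0.370%, in 18669 tiles of which 60 are members. Another 260 members (6.09%) were mixed, with at least 1 in 3 cytosines under 20% and at least 1 in 3 over 80%. Of those 3654 tiles that were not members, 0.192% were mixed. Mixed was called on the mean of the 3 embryos, whose values the rule also used, so this contrast is a description only. Among the 1217 members with at least 10 cytosines 85.1% were even and 1.32% were mixed. Over all 38765 cytosines of members, 78.3% stood at 20 to 80% in the BM, 77.1% in the BP and 79.2% in the WT embryo. Counted cytosines at adjoining positions gave 12165 pairs. Without context, such a pair can be both strands of a CpG or of a GC. The difference within a pair had an SD of 12.8 points in the BM, 14.3 in the BP and 12.6 in the WT embryo. The median SD over the cytosines of a member was 21.6, 22.1 and 21.1 points. The standard error of a tile mean over its cytosines was 7.13 points in the BM, 7.49 in the BP and 6.96 in the WT embryo in the median, and it covers the spread within 1 library only. Members mixed in the embryos were mixed in early ahESCs in 143 of 249 tiles with values (57.4%) and in early diploid ESCs in 169 of 255 (66.3%). In the other ESC libraries few were, with 5 of 216 in late ahESCs, 0 of 37 in late phESCs, 6 of 246 in early phESCs and 4 of 230 in late diploid ESCs. Among even members, 13 of 3260 (0.399%) were mixed in early diploid ESCs.

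Outside the embryos, more than 1 in 2 members were at 35 to 65% in both adult brains, and fewer in the other 7 libraries. In the BM brain at E19.5 their median was 65.8%, against 86.9% over all eligible tiles, and 1711 of 3894 members were at 35 to 65% (43.9%, against 11.2% of all eligible tiles), while 2052 (52.7%) were over 65%. The BM adult brain had a median of 55.9%, with 1696 of 3012 members at 35 to 65% (56.3%, against 17.3%). The WT adult brain had a median of 57.9%, with 2302 of 3794 members in that range (60.7%, against 16.8%). Among the ESC libraries, early ahESCs had 1972 of 4190 members in the range (47.1%, against 20.3%) and early diploid ESCs 1776 of 4230 (42.0%, against 18.2%). In early phESCs, 1595 of 4105 members were at 35 to 65% (38.9%), below the 51.3% of all eligible tiles, whose median there was 40.04% against 30.7% in members. At late passage the members were mostly under 35%. Late ahESCs had a median of 24.7% and 867 of 3669 members at 35 to 65% (23.6%, against 40.1%). Late phESCs had a median of 17.1% and 137 of 1536 members in the range (8.92%, against 31.7%), and late diploid ESCs a median of 18.9% and 424 of 3980 (10.7%, against 27.7%).

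**Figure D3:**
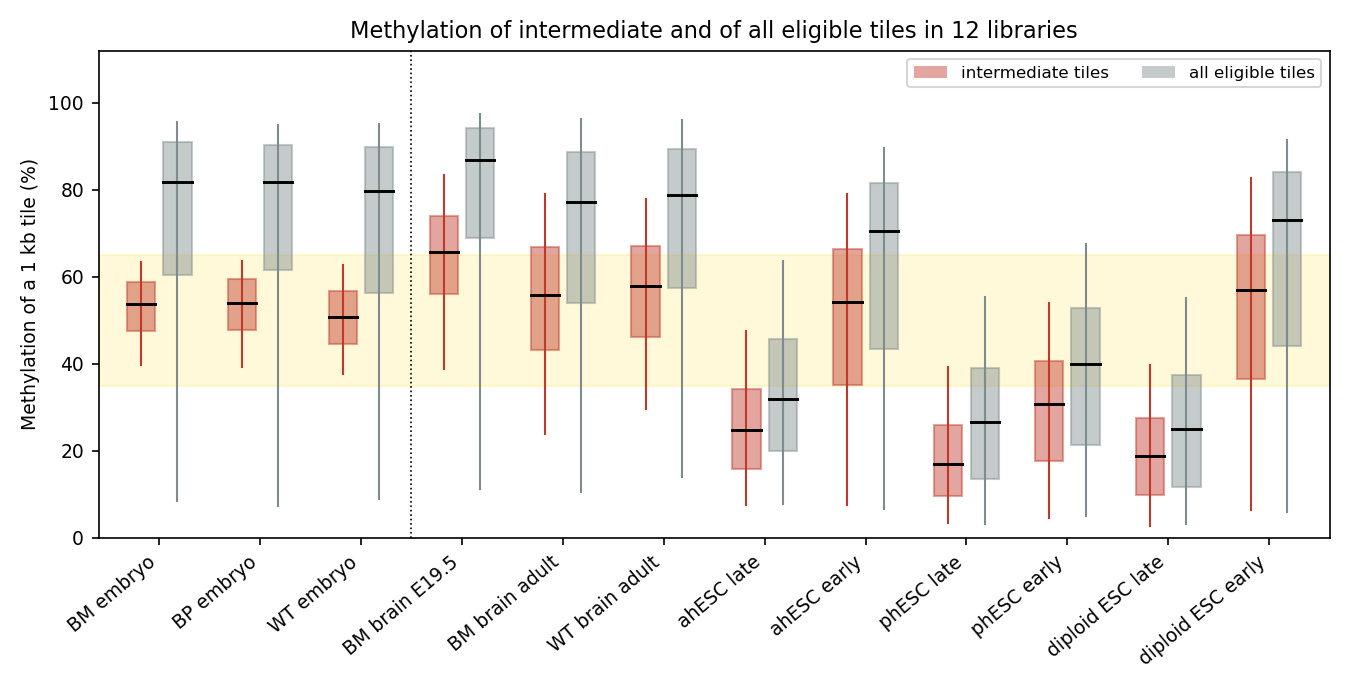
Methylation of a tile in percent in each of the 12 libraries, for intermediate tiles (red) and all eligible tiles (grey); boxes span the 25th to the 75th percentile, the black bar is the median, whiskers reach the 5th and 95th percentile, and the yellow band is the range of the rule. The 3 embryos left of the dotted line chose the tiles; to the right of it the intermediate tiles have the lower median in each of the 9 libraries.

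The members came from different levels in ESCs. In early diploid ESCs 578 members (13.7%, against 14.1% of all eligible tiles) were under 20%, and 427 (10.1%, against 6.78%) at 20 to 35%. A further 1776 (42.0%, against 18.2%) were at 35 to 65% and 1449 (34.3%, against 60.9%) over 65%. The share under 20% was thus close to that of all eligible tiles. Those under 20% in early diploid ESCs had a median of 51.1% in the BM, 49.9% in the BP and 48.4% in the WT embryo, and of 60.9% in the BM brain at E19.5. Those over 65% had a median of 74.0% in early diploid ESCs, and of 55.4% in the BM, 55.7% in the BP and 51.9% in the WT embryo. The rule and these cuts fix on which side of the early diploid level the embryos lie in both sets.

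The ESC level followed how many cytosines a tile held. In early diploid ESCs the median of members was 58.2% with 5 to 9 cytosines (3056 tiles), 55.1% with 10 to 19 (1016), 33.6% with 20 to 39 (171) and 13.8% with 40 or more (30). Over all eligible tiles the same steps gave 74.1, 73.2, 49.2 and 9.93%, so the fall with cytosine number was not limited to members. In the BM brain at E19.5 the member medians were 66.5, 65.2, 60.2 and 61.2%, and those of all eligible tiles 86.0, 88.6, 86.6 and 57.1%. Among the 30 members with 40 or more cytosines, 13 lay in promoters and 16 in exons.

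**Figure D4:**
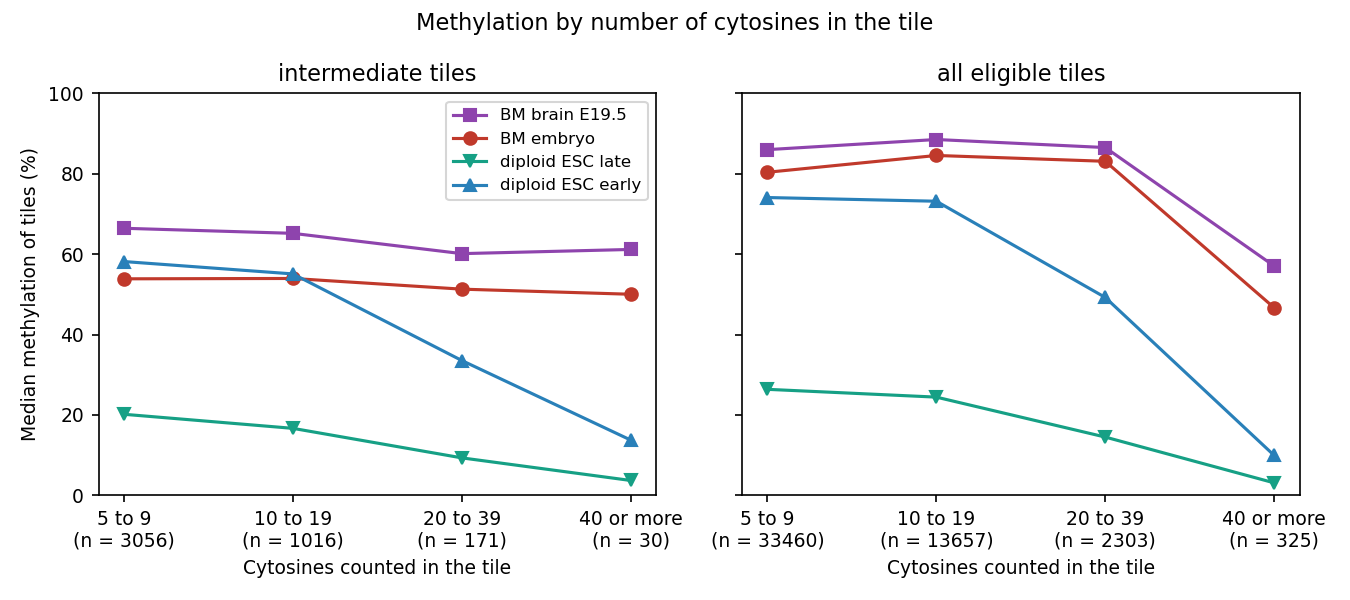
Median methylation in percent of tiles grouped by the number of counted cytosines, for intermediate tiles (left) and all eligible tiles (right), in the BM brain at E19.5, the BM embryo, late diploid ESCs and early diploid ESCs; n is the number of tiles. In intermediate tiles the early diploid median drops to 13.8% in the tiles with most cytosines, while the BM brain stays between 60.2 and 66.5%; over all eligible tiles the BM brain drops to 57.1% there.

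The passage of ESCs in culture went with lower methylation in members as in the rest. A difference of 25 points counts as lower or higher below. Late diploid ESCs were lower than early ones in 2823 of 3961 members (71.3%, against 75.1% of all eligible tiles) and higher in 0 (against 0.0312%). The member median was 18.9% in late and 56.7% in early diploid ESCs. Late ahESCs were lower than early ones in 1823 of 3609 members (50.5%, against 59.5%) and higher in 1 (against 0.0881%). In phESCs, which were already low at early passage, 17 of 1500 members were lower at late passage (1.13%, against 2.84%) and 0 were higher (against 0.178%). The shares of lower tiles were below those of all eligible tiles in each of the 3 cell types, and a tile must stand at 25% or more at early passage to be called lower. Among members that did, late diploid ESCs were lower in 85.9% (against 90.5%), late ahESCs in 60.9% (against 72.2%) and late phESCs in 2.51% (against 4.39%).

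The late ahESC, late phESC, BM adult brain and WT adult brain libraries stand apart from the other 8. They have values at 2209 to 7697 positions of the unplaced sequence of chromosome Y, where the other 8 have none. The late phESC library also had values in the fewest members, 1536 of 4273. Late against early haploid cells, and adult against E19.5 BM brain, cross this line, so this difference and the passage or age cannot be told apart there. Late against early diploid ESCs and BM against WT adult brain do not cross it. The labels name no library sets, so whether these libraries were prepared together is unknown.

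Among members with at least 10 cytosines in both libraries, the largest falls in diploid ESCs were at Ano2, a chloride channel (12.5% in late and 79.2% in early cells), Slc12a8, a solute transporter (5.78% in late and 71.4% in early cells), and Thbs1, an adhesion protein of the extracellular matrix (20.02% in late and 84.4% in early cells). Thbs1 also had the largest fall in ahESCs, with 16.03% in late and 79.1% in early cells. These 3 members lay in the middle in the embryos by the rule, with Thbs1 at 45.4% in the BM, 59.96% in the BP and 40.1% in the WT embryo. The largest difference upwards was at a member in an exon of Ptpn21, a tyrosine phosphatase. Ptpn21 stood at 46.2% in late and 20.7% in early ahESCs, 38.9% in late and 44.2% in early phESCs, and 25.7% in late and 16.7% in early diploid ESCs. Next to it was Chrm1, a muscarinic receptor of neurons, with 38.2% in late and 20.8% in early ahESCs. In phESCs the largest fall at a placed gene was at Mfap4, a microfibril protein, with 18.6% in late and 43.0% in early cells.

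**Figure D5:**
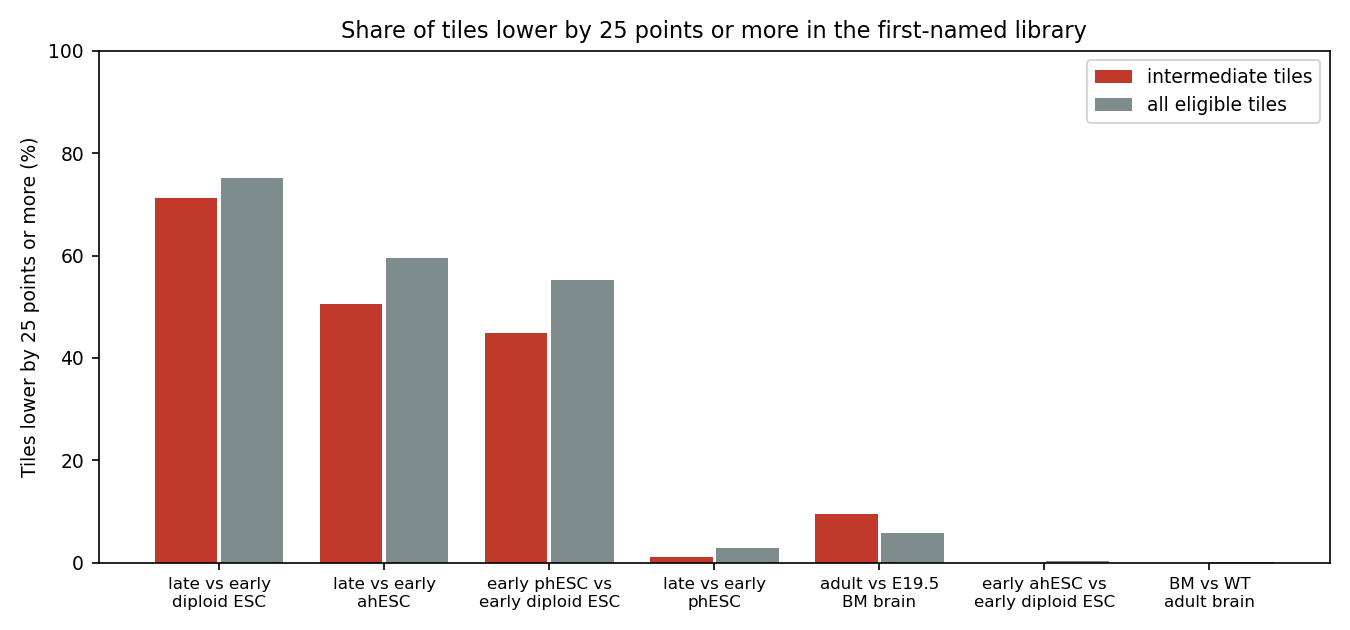
Percent of tiles that were lower by 25 points or more in the first-named library of each comparison, for intermediate tiles (red) and all eligible tiles (grey); each bar compares 2 single libraries. Intermediate tiles lie under all eligible tiles in late against early diploid ESCs (71.3 and 75.1%) and above them in adult against E19.5 BM brain (9.46 and 5.72%).

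At early passage, phESCs were lower than diploid ESCs in 1828 of 4079 members (44.8%, against 55.2% of all eligible tiles) and higher in 2 (against 0.122%). The member median was 30.7% in early phESCs and 56.8% in early diploid ESCs. Named examples were Slc12a8, with 19.9% in phESCs and 71.4% in diploid ESCs, Pax9, a developmental transcription factor, with 26.6% and 75.5%, and Tmem204, a membrane protein gene, with 35.3% and 83.2%. Ptpn21 went the other way, with 44.2% in early phESCs and 16.7% in early diploid ESCs. Early ahESCs and early diploid ESCs were close, with 1 of 4188 members lower (against 0.346%) and 3 higher (against 0.307%), and a difference with median -2.15 and SD 4.99 points. The largest differences at placed genes with at least 10 cytosines stayed under 25 points, at Ttc7 (36.8% in early ahESCs and 59.9% in early diploid ESCs) and Slc26a9, an anion transporter (21.8% and 44.6%).

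In the adult brain, BM and WT were close in members. Of 3012 members 1 was lower and 1 higher in the BM brain (against 0.0569% and 0.0313% of all eligible tiles), and the difference had a median of -1.25 and an SD of 5.71 points, wider than the SD of 4.46 over all eligible tiles. With at least 10 cytosines, the largest difference upwards was at the Gnas and Nespas promoter tile, with 66.4% in the BM and 50.5% in the WT adult brain. St8sia5, a sialyltransferase, followed with 75.3% in the BM and 60.2% in the WT adult brain. The largest downwards at a placed gene were at Col13a1, a membrane collagen (55.8% in BM and 70.7% in WT), and Nexn, an actin-binding protein (43.7% in BM and 57.9% in WT). None of these 4 reached 25 points.

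The adult BM brain was lower than the E19.5 BM brain in 252 of 2665 members (9.46%, against 5.72% of all eligible tiles) and higher in 4 (against 0.255%). The median was 56.0% in the adult and 66.2% at E19.5. At Espnl, an espin-like protein of hair cells, the adult BM brain stood at 44.5% and the E19.5 BM brain at 85.5%. Macrod1, an ADP-ribose hydrolase, stood at 34.5% in the adult and 74.0% at E19.5. Map7d1, a microtubule-associated protein, was among those higher, with 76.8% in the adult and 50.7% at E19.5. With only cytosines measured in all 12 libraries, which gives other tiles, the share lower came to 5.25% of 1238 members. No share over all eligible tiles was computed at that setting. Whether members still exceed them there is thus unknown.

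The BM brain at E19.5 and the BM embryo are both labelled DMR-KO and bimaternal and differ in tissue and day, and the labels do not say whether their deletions are the same. The rule fixed the embryo value of the members, so their share is a description only: the brain was higher in 458 of 3894 members (11.8%, against 3.80% of all eligible tiles) and lower in 29 (against 0.476%). Among the members lower in brain was Scn8a, a sodium channel of neurons, with 20.5% in the BM brain at E19.5 and 54.6% in the BM embryo. Amer2, a regulator of Wnt signalling, stood at 22.9% in that brain and 50.7% in the BM embryo. Both were lower still in the adult, with Scn8a at 9.47% in the BM and 14.5% in the WT adult brain and Amer2 at 14.1% in the BM and 17.1% in the WT adult brain. Members higher in brain included Bcas3 with 90.2% in the BM brain at E19.5 and 46.7% in the BM embryo, and Dpep1, a dipeptidase, with 77.8% and 38.1%.

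Members at genes of fixed lists were counted next, where 978 of 10442 genes with an eligible tile in a placed exon or promoter had a member (9.37%). Of 31 measured imprinted genes, 8 had one (25.8%), namely Cdkn1c, Gnas, H13, Magel2, Meg3, Mkrn3, Nespas and Trappc9. Any of these regions could be among those deleted in the DMR-KO samples, in which case a BM or BP value would come from the copy that remained. A tile in the promoter of Nespas, an antisense transcript of the Gnas locus (chr2:174111001-174112000), stood at 58.9% in the BM, 54.3% in the BP and 62.3% in the WT embryo. It stood at 64.1% in the BM brain at E19.5, 52.9% in the BM adult and 65.7% in the WT adult brain, and at 2.09 to 9.38% in the 6 ESC libraries. The neighbouring tile, with promoters of Gnas, which encodes the alpha subunit of a G protein, and of Nespas, was also low in ESCs, at 1.49 to 4.91%. The adult brains differed in opposite directions, with 66.4% in BM and 50.5% in WT at that tile, against the values of the Nespas tile just given. Magel2 and Mkrn3, both expressed from the paternal copy, had promoters in members at 46.4 and 40.6% in the BM, 48.2 and 43.3% in the BP and 45.5 and 39.3% in the WT embryo. In early diploid ESCs Magel2 stood at 26.1% and Mkrn3 at 4.99%.

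In 1 tile each of Meg3 and H13 the BM and BP embryos lay together and the WT embryo lay lower. The rule holds the BM and BP embryos within 15 points in every member. Over all members, the BM value exceeded the WT value by 1.81 points and the BP value by 2.27 points in the median. The difference from WT ran from -21.5 to 27.4 points for BM and from -20.9 to 29.3 points for BP. The tiles of Meg3 and H13 were picked after their values were seen. How many members have the WT embryo as far below was not counted, so this order is a description only. A tile in an exon of Meg3, a maternally expressed long noncoding RNA (chr12:110784001-110785000, 10 cytosines), stood at 60.6% in the BM, 60.3% in the BP and 41.2% in the WT embryo. It was at 34.5% in the BM brain at E19.5 and had no value in the adult brains. A tile of H13, which encodes a signal peptide peptidase (chr2:152532001-152533000, 14 cytosines), stood at 53.2% in the BM, 56.6% in the BP and 35.3% in the WT embryo. The adjoining H13 tile, with 5 cytosines, did not repeat that order, with 57.3% in the BM, 43.2% in the BP and 54.5% in the WT embryo. Meg3 was high in some ESCs, with 72.7% in early ahESCs, 28.9% in early phESCs, and 16.8% in late and 69.1% in early diploid ESCs. Trappc9, a gene of vesicle transport, also stood in the middle there, with 44.3% in early ahESCs and 53.9% in early diploid ESCs.

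Of 24 measured germline genes 3 had a member, each at a promoter (3 of 22 measured promoters, against 370 of 5050 over all genes). These were Hormad2, Smc1b, a cohesin subunit of meiosis, and Meioc, a regulator of meiotic prophase with 2 adjoining members. The Hormad2 tile stood at 56.2% in the BM, 61.8% in the BP and 48.8% in the WT embryo, and at 1.75% in late and 4.85% in early diploid ESCs. The Meioc tile with 54 cytosines stood at 60.4% in the BM, 47.9% in the BP and 53.8% in the WT embryo. The Smc1b tile, shared with the promoter of Ribc2, stood at 55.3% in the BM, 50.2% in the BP and 57.8% in the WT embryo. In early diploid ESCs Meioc was at 16.5% and Smc1b at 28.3%. Boll, Henmt1, Papolb and Sox30, described above, were not on the germline list, so the share of 12.5% does not count them.

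Among the other lists, protocadherins, adhesion proteins of neurons, had a member at 5 of 13 measured genes, muscle genes at 3 of 11 (Myf5, Myh3 and Ttn), fibroblast genes at 2 of 5 (Pdgfrb and Thy1), trophoblast genes at 2 of 7 (Elf5 and Krt18), neural genes at 1 of 10 (Aqp4) and pluripotency genes at 1 of 8 (Klf2). None of the 20 measured developmental regulators, 10 genes of the methylation machinery, 6 liver genes or 5 blood genes had one. The 5 protocadherin members (Pcdha4, Pcdhac1, Pcdhb2, Pcdhgb1 and Pcdhgc5) lay in exons and stood at 41.5 to 63.8% in the BM, 38.9 to 62.8% in the BP and 46.3 to 59.7% in the WT embryo. In early diploid ESCs they were at 14.4 to 32.4%. Klf2, a transcription factor of pluripotent cells, stood at 56.0% in the BM, 46.9% in the BP and 52.3% in the WT embryo, against 1.87% in early diploid ESCs. Aqp4, the water channel of astrocytes, took the opposite order, with 84.3% in early diploid ESCs, 51.4% in the BM brain at E19.5, 30% in the BM adult brain and 34.3% in the WT adult brain. Muscle genes were also above their embryo values in early diploid ESCs, at 81.9% for Myf5 and 78.9% for Ttn, but not Myh3, at 35.6%.

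Members differed in how alike their cytosines were. Among the 1217 with at least 10 cytosines, the largest of the 3 embryo SDs had a median of 21.6 points, and 36 members were under 10 points in all 3 embryos. No such count is given over all eligible tiles, so whether 36 is few or many is unknown. The tile with the smallest spread was the Nespas tile above, at SDs of 5.36 in the BM, 5.24 in the BP and 3.54 points in the WT embryo over 11 cytosines. Next came an exon of Hsf5, a heat shock factor of the testis, with SDs of 6.15, 5.55 and 5.41 points, and tiles within Zfhx3, a homeobox gene, and Banp, a nuclear matrix protein. These tiles were chosen after their values were seen. They differed elsewhere, with 7.86% for Nespas, 76.8% for Hsf5, 20.5% for Zfhx3 and 81.2% for Banp in early diploid ESCs. In the BM embryo the Gnas and Nespas promoter tile had an SD of 3.66 points over 38 cytosines, but 22.0 in the BP embryo and 9.01 in the WT embryo.

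Members were spread over all 19 autosomes. Of 4273 members, 356 (8.33%) lay in promoters, taken as 1000 bp before to 500 bp after the start of a placed first exon or window, 602 (14.1%) in other exons and 1010 (23.6%) between placed exons of a gene. All eligible tiles had 10.2% in promoters, 21.7% in exons and 17.2% between exons. Only part of the sequences could be placed (16.7% of exons and 34.5% of promoter windows), so a tile with none may still hold a gene. By chromosome the members made up 6.71% of eligible tiles on chromosome 3 to 10.3% on chromosomes 4 and 11. Of the 848 members with an eligible neighbour, 279 had one at 35 to 65% over the mean of the 3 embryos (32.9%, against 15.6% over all eligible tiles). Of the 923 neighbours of members, 31.2% were at 35 to 65%, 47.6% over 65% and 21.2% under 35%. Tiles over 65% in all 3 embryos had 87.2% of neighbours over 65%. Tiles under 35% in all 3 had 76.9% of neighbours under 35%. The embryo values of the rule enter these counts, which are a description only. The members formed 4186 runs, of which 4102 were single tiles and 3 had 3 tiles. Since 848 of 4273 had an eligible neighbour, most could only be single. The runs of 3 lay within Ccdc85c (chr12:109457001-109460000), within Casz1, a zinc finger gene (chr4:148262001-148265000), and beside Gm13667 (chr2:73972001-73975000). The Ccdc85c run averaged 49.0% in the BM, 50.5% in the BP and 45.5% in the WT embryo over 46 cytosines.

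Simple motifs were counted in the promoter windows, on both strands. The E-box CACGTG was in 1 of 28 placed windows that held at least 8 counted cytosines of members (3.57%), against 10.2% of 10826 placed windows. The letters TCCCGC, part of sites of E2F factors, were in 6 of 28 (21.4%), against 37.7%. Over all 32851 windows of the RefSeq table, placed or not, CACGTG was in 7.15% and TCCCGC in 19.98%. These motifs can share at most 1 base at their ends. The 28 windows had a median of 12.5 CpGs, all placed windows 22 and the windows of the whole table a median of 7, so the sets differ in CpG content, and the counts are a description only. Of the printed windows, Boll and Sox30 hold TCCCGC once each, and CACGTG is in none of the 6.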

How the data were processed

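Cytosine methylation was measured in 12 mouse RRBS libraries, 1 per group. The deposited table gives a percent from 0 to 100 for each cytosine and marks missing values. Per the submitters' processing notes, the authors used Trim Galore and Bismark 0.13.1 with build mm9. It gives no coverage, so the depth behind each value is unknown and no counting interval was computed. Between 3773871 and 5903648 cytosines had a value per library. It lists cytosines of CG and GC pairs with no context, and the 20% filter left 470368 cytosines in eligible tiles.

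Members and gene lists were chosen with earlier results of these data known. Tile means are over counted cytosines, and pairs of libraries were compared over cytosines measured in both, at least 5 per tile. With 1 library per group there is no test, and a difference of 25 points counted as lower or higher. GENCODE M21 exons and RefSeq promoter windows were placed on mm9 by the pattern of listed positions, with no conversion of coordinates. Of 293353 exon sequences 49070 were placed and of 31396 promoter windows 10842. A pattern search placed 37761 of them, after 148 placements were dropped for a distance not shared nearby. Before that check, it also placed 168 sequences when they were reversed. The other 22151 were placed beside those of the pattern search, against 0 at a false shift of 2017 bp. Imprinted regions were found by gene only, since coordinates of control regions were not used here. Named regions were the 10 with most cytosines, the 5 largest differences each way per comparison with at least 10 cytosines, the longest runs, the tiles nearest each bound and members at listed genes, and the text gives the leading ones. One coding sequence is not reported here. The functions were tested on simulated data. Python 3.11.15, NumPy 2.4.6, pandas 2.3.3 and Matplotlib 3.10.9 were used.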

Additional observations from a re-analysis of the deposited data

How the results depend on the processing

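Under 9 alternatives, 120 values were recomputed, of which 84 stayed within 1.5 times and 36 did not. The number of intermediate tiles, 4273, was 1217 with 10 cytosines per tile, 2593 with the median over cytosines, 2125 with a band of 40 to 60% and 1238 with cytosines measured in all 12 libraries. With no filter on cytosine level, cytosines near 0 enter each mean. This gave 18669 tiles, of which 60 were among the 4273. These tiles were even in 0.370%, at 35 to 65% in the BM brain at E19.5 in 96.3% and in early diploid ESCs in 68.2%. In them, the shares that differed by 25 points were 28.5% in diploid passage, 14.7% in ahESC passage, 0.0925% in phESC passage, 4.73% for early phESCs and 0.0387% for early ahESCs against diploid ESCs, 0 for BM against WT adult brain, 0.237% for the adult against the E19.5 BM brain and 0.012% for the E19.5 BM brain against the BM embryo. At 15 points in place of 25, the shares were 9.60% in phESC passage, 74.8% for early phESCs and 1.43% for early ahESCs against diploid ESCs, 2.06% for BM against WT adult brain, 31.3% for the adult against the E19.5 BM brain and 40.2% for the E19.5 BM brain against the BM embryo. With the median over cytosines, 26.4% were at 35 to 65% in early diploid ESCs, and the shares were 2.23% in phESC passage, 0.432% for early ahESCs, 0.855% for BM against WT adult brain and 21.2% for the E19.5 BM brain against the BM embryo. With 10 cytosines per tile the phESC passage share was 0.271% and BM against WT adult brain 0. With the band of 40 to 60%, 21.4% of tiles had an intermediate neighbour, and the shares were 0.656% in phESC passage, 0.192% for early ahESCs and 0.132% for BM against WT adult brain. Early ahESCs came to 0.163% with cytosines at 40% or more. With cytosines measured in all 12 libraries, BM against WT adult brain came to 0.162% and the adult against the E19.5 BM brain to 5.25%. Apart from the missing filter, the cause of these shifts was not tested. Shares under 1% rest on a few tiles. The alternatives give shares of intermediate tiles only, so they cannot be set against the shares of all eligible tiles given above.

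No paired analysis was possible because each group has 1 library. Depth is unknown, so the precision of single values cannot be given.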
